A study of Rattus norvegicus with 16 samples.

Results

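Cell cycle and DNA replication genes were followed in rat ovaries as 47 listed genes, 21 that act around S phase and 26 that act in mitosis, out of 20227 features tested on the array. They were found by gene name or older symbol, and each gene was read from the probe with the highest mean over 16 arrays. All 47 were on the array and well above background on all 16 arrays, so none depended on 1 group to pass the filter on dim probes. The tissue was the whole ovary, from female rats of the Sprague-Dawley stock Jcl:SD, and genotype was crossed with treatment. The 4 groups were BRCA1+/- rats given olaparib, BRCA1+/- rats given vehicle, wild-type rats given olaparib and wild-type rats given vehicle, with 4 arrays in each. Olaparib, an inhibitor of the DNA repair enzyme PARP, was injected under the skin daily for 14 days at 50 mg/kg, starting at 3 weeks of age, and rats were killed 24 h after the final dose. The composition and schedule of the vehicle and the kind of BRCA1 allele are not given in the sources used here. Each array held total RNA of whole ovary, so that fewer dividing cells and less RNA per dividing cell cannot be told apart. The labels number the ovaries without naming the rats, and the p-values below measure the spread between these samples.

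A dividing cell copies its DNA in S phase and separates the copies in mitosis, and most of the genes that serve these phases are transcribed mainly when they are needed. In the ovary of a young rat the most abundant dividing cells are the granulosa cells of growing follicles. Among the S-phase members, Ccnd2, Ccne1 and Ccne2 encode cyclins that drive entry into S phase, and E2f1 encodes a transcription factor of that step. Cdc6 and Cdt1 load the replicative helicase, which is built from the products of Mcm2, Mcm3, Mcm4, Mcm5, Mcm6 and Mcm7. Mcm10, Cdc45, Gins1 and Gins2 help to activate it, and Pcna is the sliding clamp of the polymerases. Rrm1, Rrm2, Tyms and Tk1 make deoxynucleotides. Among the mitotic members, Cdk1 with Ccna2, Ccnb1 and Ccnb2 forms the kinase that starts mitosis, Foxm1 is a transcription factor of mitotic genes, and Plk1, Aurka and Aurkb are mitotic kinases. Bub1, Bub1b, Mad2l1 and Ttk serve the spindle checkpoint, and Cdc20 and Ube2c act in the protein degradation that ends it. Top2a untangles DNA, and Mki67 is the proliferation marker Ki-67. Birc5, Cenpe, Cenpf, Kif11, Kif20a, Kif23, Nusap1, Prc1, Racgap1 and Tpx2 build or use the spindle and the cleavage apparatus.

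Promoter sequence is shown for 5 members to set the best known sequence words of the S-phase and mitotic classes beside each other. Windows of 300 bases, from 250 before to 50 after the annotated start, were taken from RefSeq on the GRCr8 build, where 35 of the 47 members had an entry. Both strands were searched for short words. An E2F-type word was TTCCCGC or its variant TTCGCGC, and likewise TTGCCGC or its variant TTGGCGC. The word of the cell cycle homology region (CHR) was TTTGAA, and that of the CCAAT box was CCAAT itself. Capitals mark these words, and in the Mki67 window a CHR word and a CCAAT word overlap. The windows are Mcm3 at chr9:30733697-30733996 on the minus strand, Tyms at chr9:120776034-120776333 on the minus strand, Cdk1 at chr20:19265043-19265342 on the plus strand, Mki67 at chr1:199952544-199952843 on the minus strand and Top2a at chr10:84473044-84473343 on the minus strand.
Mcm3: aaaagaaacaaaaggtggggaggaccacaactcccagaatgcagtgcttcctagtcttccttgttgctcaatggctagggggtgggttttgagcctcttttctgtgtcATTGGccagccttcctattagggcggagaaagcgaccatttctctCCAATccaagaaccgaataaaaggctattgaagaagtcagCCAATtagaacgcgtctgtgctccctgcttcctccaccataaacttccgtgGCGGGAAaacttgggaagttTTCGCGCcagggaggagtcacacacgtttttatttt
Tyms: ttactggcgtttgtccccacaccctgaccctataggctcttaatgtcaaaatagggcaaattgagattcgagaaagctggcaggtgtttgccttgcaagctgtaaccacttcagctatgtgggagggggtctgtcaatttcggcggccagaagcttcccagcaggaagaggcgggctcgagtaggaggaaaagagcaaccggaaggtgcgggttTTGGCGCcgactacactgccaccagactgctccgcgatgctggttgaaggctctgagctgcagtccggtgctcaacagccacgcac
Cdk1: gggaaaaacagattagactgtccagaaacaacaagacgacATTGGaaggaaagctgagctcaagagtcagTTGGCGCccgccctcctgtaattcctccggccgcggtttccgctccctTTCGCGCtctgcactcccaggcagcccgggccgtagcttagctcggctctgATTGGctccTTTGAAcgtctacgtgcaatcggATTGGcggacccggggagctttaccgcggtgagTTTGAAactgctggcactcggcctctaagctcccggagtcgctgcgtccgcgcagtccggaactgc
Mki67: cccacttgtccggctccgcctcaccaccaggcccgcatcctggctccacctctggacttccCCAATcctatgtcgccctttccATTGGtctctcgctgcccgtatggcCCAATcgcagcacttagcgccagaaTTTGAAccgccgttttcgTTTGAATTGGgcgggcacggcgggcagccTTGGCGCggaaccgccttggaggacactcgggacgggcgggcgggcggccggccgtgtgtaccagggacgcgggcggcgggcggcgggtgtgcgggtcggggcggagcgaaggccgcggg
Top2a: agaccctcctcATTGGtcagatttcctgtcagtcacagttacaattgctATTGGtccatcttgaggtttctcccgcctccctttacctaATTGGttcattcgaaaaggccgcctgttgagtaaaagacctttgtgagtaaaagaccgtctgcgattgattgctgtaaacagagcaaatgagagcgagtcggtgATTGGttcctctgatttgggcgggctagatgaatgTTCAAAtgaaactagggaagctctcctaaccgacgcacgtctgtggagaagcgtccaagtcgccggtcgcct

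An E2F-type word was in 10 of the 15 S-phase windows (66.7%), in 4 of the 20 mitotic windows (20%) and in 10% of 27457 rat genes. The CHR word ran the other way, with 1 of 15 S-phase windows (6.67%), 14 of 20 mitotic windows (70%) and 18.1% of all genes. CCAAT was in 10 of 15 S-phase windows (66.7%), in 16 of 20 mitotic windows (80.0%) and in 37.7% of all genes. Among the printed windows, Mcm3 and Tyms held E2F-type words and no CHR, Top2a held a CHR and no E2F-type word, and Cdk1 and Mki67 held both. These are matches of letters in a window and not sites of binding.

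The arrays are described here before any comparison. The 75th percentile of the processed signal, to which each array was scaled, ran between 202 and 566. The dimmest arrays were BRCA1+/- vehicle replicate 3 (202), wild-type vehicle replicate 3 (206) and wild-type olaparib replicate 4 (241). The others were at 331 or more, with BRCA1+/- vehicle replicate 4 the brightest. The part of array brightness in the member values was not tested. Probes well above background made up 55.5% to 60.7% of an array, and no spot was saturated. The number of arrays limits the precision. The granulosa cell genes Amh (3.23 to 6.11 on the log2 signal scale) and Inha (7.19 to 8.84), the oocyte genes Zp3 (1.69 to 3.55) and Gdf9 (0.48 to 2.69) and the theca cell gene Cyp17a1 (-1.93 to 6.41) were well above background on all 16 arrays, so that cells defining the labelled tissue were present in each sample. A score over 13 measured markers of ciliated and secretory oviduct epithelium, the mean of their log2 signals after centring each gene on its mean, split the arrays into 6 between 1.38 and 3.77 and 10 between -2.42 and -0.71. The 6 high arrays were BRCA1+/- olaparib replicates 3 and 4, BRCA1+/- vehicle replicates 3 and 4, and wild-type olaparib replicates 1 and 3, with none among wild-type vehicle. Slide 1 carried replicates 1 and 2 of each of the groups, and slide 2 carried replicates 3 and 4. Between slide 2 and slide 1, 1600 features (7.91%) had a limma adjusted p under 0.05. Because of this, values within each slide are given beside the pooled ones, and values without the 6 oviduct-high arrays are given too.

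Brca1 itself had log2 signals of -0.50, -0.82, -1.18 and -0.37 in BRCA1+/- olaparib ovaries and -0.95, -0.78, -1.29 and -1.44 in BRCA1+/- vehicle ovaries. In wild-type ovaries it had -0.77, -0.74, 0.17 and -0.91 with olaparib and -0.15, -0.11, -0.70 and -0.81 with vehicle. It was lower by a log2 difference of -0.67 in BRCA1+/- than in wild-type with vehicle (95% interval -1.26 to -0.09, limma adjusted p = 0.862) and by -0.16 with olaparib (-0.74 to 0.42, limma adjusted p = 1.00). The sources used here do not say whether the probe lies in the stretch that the BRCA1 allele changes, and the values are no check of the genotype.

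No feature passed a limma adjusted p under 0.05 in any of the 5 comparisons, and no member was called. The smallest adjusted p over all features was 1.00 for olaparib in BRCA1+/- rats, 0.965 for olaparib in wild-type rats, 1.00 for genotype under olaparib, 0.592 for genotype with vehicle and 0.968 for the interaction. At an unadjusted p under 0.05 the counts were 237, 876, 185, 1112 and 695 of 20227 features. What follows are therefore sizes, directions and spreads of the members, none of which passed the test.

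The S-phase score, made in the same way from the 21 S-phase members, was 0.19 ± 0.45 in BRCA1+/- olaparib ovaries, -0.41 ± 0.25 in BRCA1+/- vehicle ovaries, 0.03 ± 0.32 in wild-type olaparib ovaries and 0.19 ± 0.51 in wild-type vehicle ovaries (SD, n = 4 each). The mitotic score was 0.05 ± 0.45 in BRCA1+/- olaparib, -0.21 ± 0.48 in BRCA1+/- vehicle, -0.03 ± 0.35 in wild-type olaparib and 0.19 ± 0.48 in wild-type vehicle ovaries (SD, n = 4 each). The groups overlapped in both scores, with the BRCA1+/- vehicle ovaries the lowest on average. In those ovaries the S-phase score was -0.07, -0.35, -0.60 and -0.61, while the mitotic score was 0.48, -0.31, -0.65 and -0.36. Replicate 1 of that group thus stood near the mean of all arrays in S-phase genes and was among the 4 highest in mitotic genes. The scores carry no p-value, since the members were listed with earlier results of these data known.

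**Figure D1:**
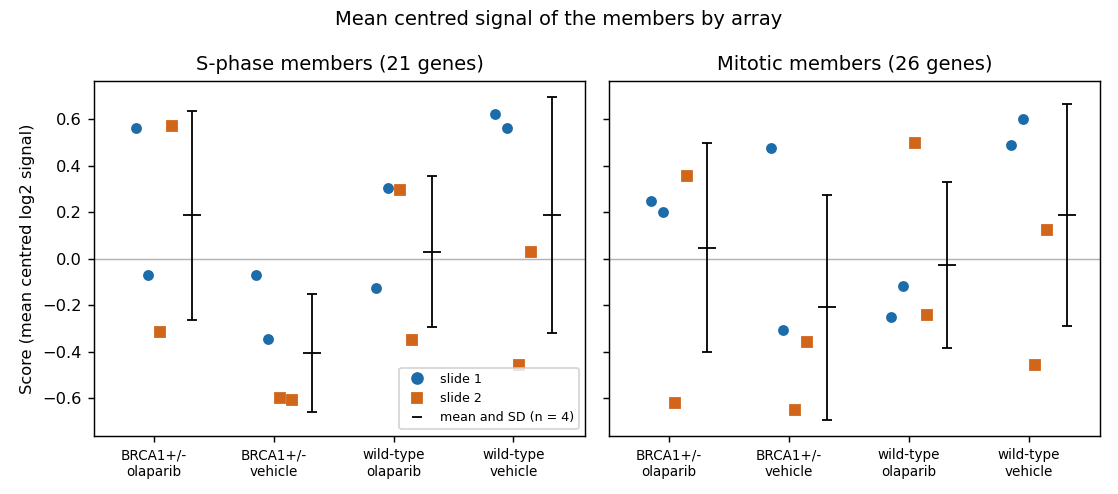
Score of the 21 S-phase members (left) and the 26 mitotic members (right) in each of the 16 arrays, as the mean log2 signal after centring each gene on its mean over the arrays. Circles are slide 1 and squares slide 2, and the bars are mean and SD of 4 arrays; BRCA1+/- vehicle has the lowest mean in both panels (-0.41 and -0.21), with groups that overlap.

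Individual members mostly followed 1 pattern over the arrays. As a description over 16 arrays, after subtracting group means, the median Pearson r was 0.746 over 210 pairs of S-phase members, 0.865 over 325 pairs of mitotic members and 0.688 over 546 mixed pairs; arrays share their scaling and slides, and no p is given. Ttk (r = 0.982), Kif20a (0.979) and Ccna2 (0.975) tracked the mean of the other mitotic members most closely, and Mcm3 (0.973) and Mcm5 (0.972) that of the other S-phase members. The mitotic kinases Aurkb (0.127) and Aurka (0.305), the kinesin Cenpe (0.132) and, among the S-phase members, Ccnd2 (0.203), Cdc45 (0.516) and Tk1 (0.602) tracked their class least. The heat map shows these as bands that differ from the rows around them.

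**Figure D2:**
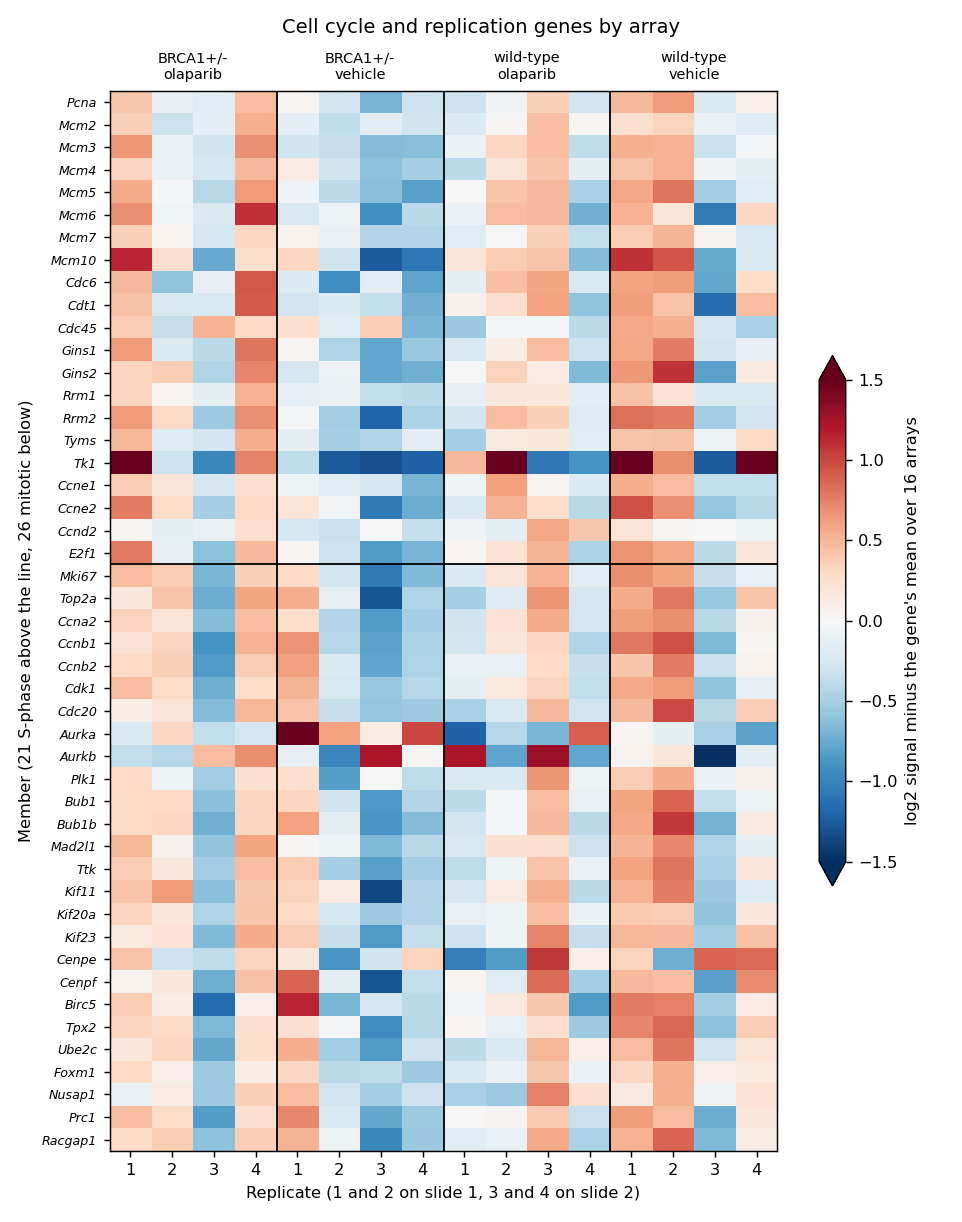
Log2 signal of each of the 47 members minus its mean over 16 arrays (colour), with members as rows and arrays as columns in 4 groups of 4 replicates. Whole columns are of 1 colour for most genes, such as BRCA1+/- olaparib replicate 3 (mitotic score -0.62) and wild-type vehicle replicates 1 and 2 (0.49 and 0.60), while Aurka, Aurkb, Cenpe and Ccnd2 differ from their neighbours.

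Most members had lower means on slide 2 than on slide 1. All oviduct-high arrays except wild-type olaparib replicate 1 were on slide 2, so slide and oviduct signal cannot be fully told apart here. On slide 2 against slide 1, with group in the model, 19 of 21 S-phase members had lower means (median log2 difference -0.30) and 23 of 26 mitotic members did (median -0.42). Mcm10 (-1.01, limma adjusted p = 0.0160), Ccne2 (-0.79, 0.0241) and Ccne1 (-0.47, 0.0483) fell past the threshold, 3 of 47 members, against 742 of all features (3.67%) called lower. No mitotic member passed.

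With olaparib in BRCA1+/- rats, all 21 S-phase members and 24 of 26 mitotic members had higher means than with vehicle. The median log2 difference was 0.62 for the S-phase members and 0.30 for the mitotic members, against 0.02 over all features, of which 53.2% were higher. The S-phase differences ran between 0.24 (Ccnd2) and 1.32 (Tk1), and the mitotic ones between -0.97 (Aurka) and 0.55 (Mki67). At an unadjusted p under 0.05, 3 S-phase members were higher (background 0.534%) and 1 mitotic member was lower (background 0.638%), and for no member were the groups apart on all arrays (background 0.499% higher and 0.608% lower). Within slides the S-phase median was 0.44 on slide 1 and 0.81 on slide 2, and the mitotic median 0.19 and 0.47.

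Mcm3 (probe at chr9:19536947-19537006 on the minus strand in the files' rn4 annotation, whose positions were not checked against a genome) had log2 signals of 3.51, 2.77, 2.56 and 3.55 in BRCA1+/- olaparib ovaries, against 2.56, 2.51, 2.21 and 2.23 in BRCA1+/- vehicle ovaries. Replicates 1 and 4 with olaparib stood highest, and replicate 3 was level with the highest vehicle ovary, so that the groups met but hardly overlapped. The difference was 0.72 ± 0.28 (SE; 1.64-fold; 95% interval 0.13 to 1.31), the smallest unadjusted p of any member here (0.0205 with limma, adjusted 1.00, two-sided exact permutation p = 0.0571).

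Next came Rrm2 and Rrm1, the subunits of ribonucleotide reductase, which makes deoxynucleotides. Rrm2 had 4.28, 3.93, 3.10 and 4.32 in BRCA1+/- olaparib ovaries, against 3.63, 3.12, 2.44 and 3.17 in BRCA1+/- vehicle ovaries. Rrm1 had 3.99, 3.69, 3.54 and 4.19 with olaparib, against 3.55, 3.57, 3.29 and 3.28 with vehicle. For both genes 3 olaparib ovaries were above every vehicle ovary and replicate 3 was not. The differences were 0.82 ± 0.37 for Rrm2 and 0.43 ± 0.19 for Rrm1 (SE; limma adjusted p = 1.00 for both; two-sided exact permutation p = 0.114 and 0.0857).

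Thymidylate is made along a pair of routes, through Tyms and through the salvage enzyme Tk1. Tyms had -0.40, -1.08, -1.17 and -0.35 in BRCA1+/- olaparib ovaries, against -1.04, -1.39, -1.34 and -1.04 in BRCA1+/- vehicle ovaries. Tk1 had 4.65, 2.69, 2.05 and 3.75 with olaparib, against 2.62, 1.76, 1.69 and 1.80 with vehicle. Tyms was highest in olaparib replicates 1 and 4 and overlapped vehicle in the others, and 3 of 4 olaparib ovaries exceeded all vehicle ovaries in Tk1. Tk1 had the largest difference of the 47, 1.32 ± 0.73, and the widest interval, -0.25 to 2.89.

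Of the replication landmarks, Pcna had 3.22, 2.69, 2.65 and 3.29 in BRCA1+/- olaparib ovaries, against 2.85, 2.54, 2.13 and 2.50 in BRCA1+/- vehicle ovaries. Mcm2 had 4.58, 3.90, 4.07 and 4.76 with olaparib, against 4.09, 3.84, 4.05 and 3.92 with vehicle. Both genes repeated the order of Mcm3 within the olaparib group, with replicates 1 and 4 above 2 and 3, and the groups overlapped. The helicase activator Cdc45 had 3.27, 2.55, 3.41 and 3.18 with olaparib, against 3.13, 2.71, 3.26 and 2.21 with vehicle. Replicate 3, low in most members, was the highest of its group in Cdc45.

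Among the cyclins, Ccne2 had a difference at the class median (0.62), Ccne1 one below it, and Ccnd2 the smallest of the 21. Ccne1 had 1.22, 1.02, 0.58 and 1.08 in BRCA1+/- olaparib ovaries, against 0.77, 0.66, 0.57 and 0.14 in BRCA1+/- vehicle ovaries. Ccnd2, the cyclin that follicle-stimulating hormone induces in rodent granulosa cells, had 3.31, 3.15, 3.19 and 3.54 with olaparib, against 3.04, 2.95, 3.28 and 2.93 with vehicle. The differences were 0.44 ± 0.26 for Ccne1 and 0.24 ± 0.18 for Ccnd2 (SE), and 1 olaparib ovary in Ccne1 and 2 in Ccnd2 lay within the vehicle range.

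The mitotic members differed less evenly over the arrays in the same comparison. Mki67 had 3.26, 3.17, 2.10 and 3.14 in BRCA1+/- olaparib ovaries, against 3.09, 2.52, 1.73 and 2.13 in BRCA1+/- vehicle ovaries. Cdk1 had 4.54, 4.34, 3.33 and 4.34 with olaparib, against 4.58, 3.84, 3.49 and 3.63 with vehicle. In Cdk1 olaparib replicate 3 was the lowest of all 8 ovaries and vehicle replicate 1 the highest, while 3 of 4 olaparib ovaries exceeded all vehicle ovaries in Mki67. Top2a had 1.23, 1.50, 0.32 and 1.66 with olaparib, against 1.61, 0.94, -0.23 and 0.61 with vehicle. Ccnb1 had 1.66, 1.78, 0.55 and 1.96 with olaparib, against 2.12, 1.02, 0.64 and 0.97 with vehicle. As with Cdk1, the highest vehicle ovary was replicate 1 and the lowest olaparib ovary replicate 3 in both, and their differences of 0.44 ± 0.42 and 0.30 ± 0.41 (SE) were about the size of their errors.

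Ttk had 1.25, 1.03, 0.35 and 1.33 in BRCA1+/- olaparib ovaries, against 1.25, 0.37, 0.06 and 0.35 in BRCA1+/- vehicle ovaries. The other checkpoint gene among the named members, Mad2l1, had 0.02, -0.41, -1.08 and 0.11 with olaparib, against -0.46, -0.55, -1.15 and -0.90 with vehicle. The spindle motor gene Kif11 had 1.11, 1.34, 0.07 and 1.09 with olaparib, against 1.02, 0.81, -0.66 and 0.25 with vehicle. Olaparib replicate 3 was the lowest of its group in all 3 genes, and the olaparib ovaries above every vehicle ovary numbered 2 in Ttk and 3 in Mad2l1 and Kif11. Tpx2, which activates Aurka on the spindle, had -0.26, -0.31, -1.26 and -0.34 with olaparib, against -0.36, -0.61, -1.55 and -1.004 with vehicle. Cdc20 had 2.37, 2.47, 1.63 and 2.78 with olaparib, against 2.71, 1.93, 1.70 and 1.73 with vehicle. Foxm1 had 1.17, 0.96, 0.34 and 0.98 with olaparib, against 1.19, 0.49, 0.50 and 0.34 with vehicle. In Tpx2 3 olaparib ovaries were above every vehicle ovary, in Cdc20 only replicate 4, and in Foxm1 none. The differences of these 6 genes lay between 0.23 ± 0.23 (Foxm1) and 0.55 ± 0.40 (Kif11, SE).

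Aurka went the other way. It had 2.23, 2.75, 2.07 and 2.18 in BRCA1+/- olaparib ovaries, against 4.09, 3.05, 2.55 and 3.44 in BRCA1+/- vehicle ovaries, read from 1 probe (chr3:163271264-163271323 on the minus strand in the files' rn4 annotation). Of the olaparib ovaries, 3 were below every vehicle ovary. The difference was -0.97 ± 0.41 (SE; 0.51-fold; 95% interval -1.84 to -0.11; limma adjusted p = 1.00; two-sided exact permutation p = 0.0571), with -1.08 on slide 1 and -0.87 on slide 2. The only other mitotic member with a lower mean was Birc5 (-0.10 ± 0.45, SE), an inhibitor of apoptosis that also serves the chromosome passenger complex.

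**Figure D3:**
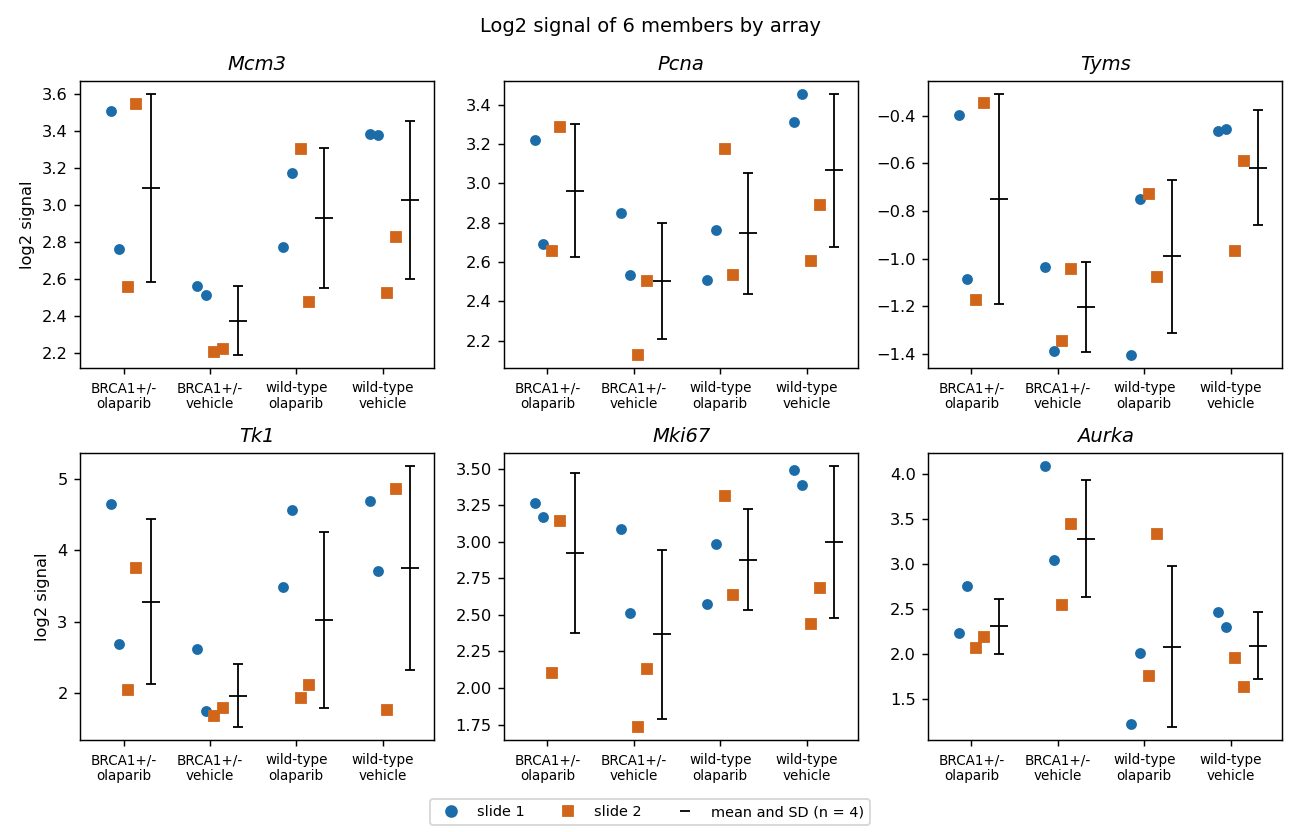
Log2 signal (vertical axis of each panel, with its own range) of Mcm3, Pcna, Tyms, Tk1, Mki67 and Aurka in the 16 arrays by group. Circles are slide 1 and squares slide 2, with mean and SD of 4 arrays beside them; BRCA1+/- vehicle ovaries have the lowest mean in 5 panels and the highest, 3.28, in Aurka.

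With slide as a block the differences were the same and only their errors moved. In that fit 8 S-phase members were higher at an unadjusted p under 0.05, against 1.01% of all features, and Aurka was still the only mitotic member past it, lower, against 0.796%. The smallest limma adjusted p of a member was 1.00. Leaving out the 6 oviduct-high arrays leaves the 2 slide 1 arrays of each BRCA1+/- group, where 20 of 21 S-phase members (median 0.44) and 23 of 26 mitotic members (median 0.19) were higher with olaparib and none had an unadjusted p under 0.05 (0.465% of all features higher and 0.489% lower). The count of 3 S-phase members at that p was 0 without BRCA1+/- olaparib replicate 1 or 4 (0.198% and 0.351% of all features higher). It was 1 without BRCA1+/- vehicle replicate 3 or 4 (0.42% and 0.598%), and 2 without BRCA1+/- vehicle replicate 2 (1.1%). It was 7 without BRCA1+/- olaparib replicate 2 (0.781%), and 8 without BRCA1+/- vehicle replicate 1 (0.564%) or wild-type vehicle replicate 3 (0.697%). It was 13 without BRCA1+/- olaparib replicate 3, when 1.53% of all features were higher at that p. Aurka was not past it without BRCA1+/- olaparib replicate 1, 3 or 4 or BRCA1+/- vehicle replicate 1 or 4. Mitotic members higher at that p appeared without BRCA1+/- olaparib replicate 3 (Mki67, Mad2l1 and Ccna2, against 1.53% of all features) and without BRCA1+/- vehicle replicate 1 (Mki67 and Ttk, against 0.564%). Leaving out single arrays kept all 21 S-phase members higher, and their median ran between 0.44 and 0.79. The mitotic median was less stable. It was 0.14 without BRCA1+/- vehicle replicate 3 and 0.19 without BRCA1+/- olaparib replicate 4. It was 0.54 without BRCA1+/- vehicle replicate 1, and 0.55 when olaparib replicate 3 was left out.

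Other genes of the pathway, listed separately from the 47, mostly had the same direction. They were read from the same arrays, and their lists were chosen with earlier results of these data known. They are therefore no independent support for the members. Of 44 other genes of G1 and S phase, 43 passed the filter (Dnmt1 did not), and 42 were higher with olaparib in BRCA1+/- ovaries, with a median of 0.42 and 3 past an unadjusted p of 0.05 (background 0.534%). These were Gmnn (0.85 ± 0.28), which restrains origin licensing, the DNA ligase gene Lig1 (0.52 ± 0.22) and the clamp loader gene Rfc4 (0.61 ± 0.26, SE). Gmnn had -0.28, -1.38, -1.06 and -0.32 with olaparib, against -1.41, -1.52, -1.95 and -1.57 with vehicle, so that the groups did not overlap. Groups were apart in this way for 5 of the 43 genes (background 0.499%), which were Gmnn, Lig1, the origin recognition gene Orc6 and the clamp loader genes Rfc2 and Rfc5. Of 50 other mitotic genes, 48 were matched to a probe and tested (not Hmgb2 and Ncaph), and 45 were higher (median 0.34), none at an unadjusted p under 0.05. The condensin gene Smc2 (0.54 ± 0.26), the kinetochore gene Cenpk (0.68 ± 0.38) and the mitotic kinase gene Pbk (0.77 ± 0.45, SE) had the smallest p. Of 18 genes that hold the cycle back, 11 were higher and 7 lower (median 0.10), led by Cdkn1b (0.56 ± 0.33), which encodes the inhibitor p27, Btg1 (-0.35 ± 0.27) and Ccng1 (0.43 ± 0.33, SE). None of these passed the limma test over all features (adjusted p = 1.00).

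No marker of other cells passed the limma test, and several lists leaned one way. Of 13 granulosa markers, 9 were higher with olaparib in BRCA1+/- ovaries (median 0.17), with scores of -0.26 to 0.46, against -0.47 to 0.00 with vehicle. All 11 measured red cell genes were lower (median -0.60), with scores of -1.74 to 0.46, against 0.05 to 0.78 with vehicle. T and NK cell markers were lower for 8 of 10 (median -0.31, with -0.23 on slide 1 and -0.33 on slide 2), with scores of -0.63 to 0.54, against 0.10 to 0.69 with vehicle. Endothelial markers were lower for 8 of 11 (median -0.24), with scores of -0.25 to 0.53, against -0.46 to 0.54 with vehicle. Oviduct markers were higher for 3 of 13 (median -0.09, with 0.14 on slide 1 and -0.34 on slide 2), with scores of -2.06 to 2.79, against -2.42 to 3.77 with vehicle. Their part in the member differences was not tested.

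With olaparib in wild-type rats the members leaned the other way, and the direction depended on the slide. Of the S-phase members 18 of 21 were lower than with vehicle (median -0.12), and of the mitotic members 25 of 26 (median -0.24), against a median of -0.07 and 39.2% higher over all features. No member had an unadjusted p under 0.05 (background 2.26% higher and 2.07% lower) or groups apart on all arrays (0.564% and 0.593%). On slide 1 the medians were -0.51 and -0.71, with 0 and 1 members higher. On slide 2 they were 0.26 and 0.32, with 19 of 21 and 23 of 26 members higher.

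**Figure D4:**
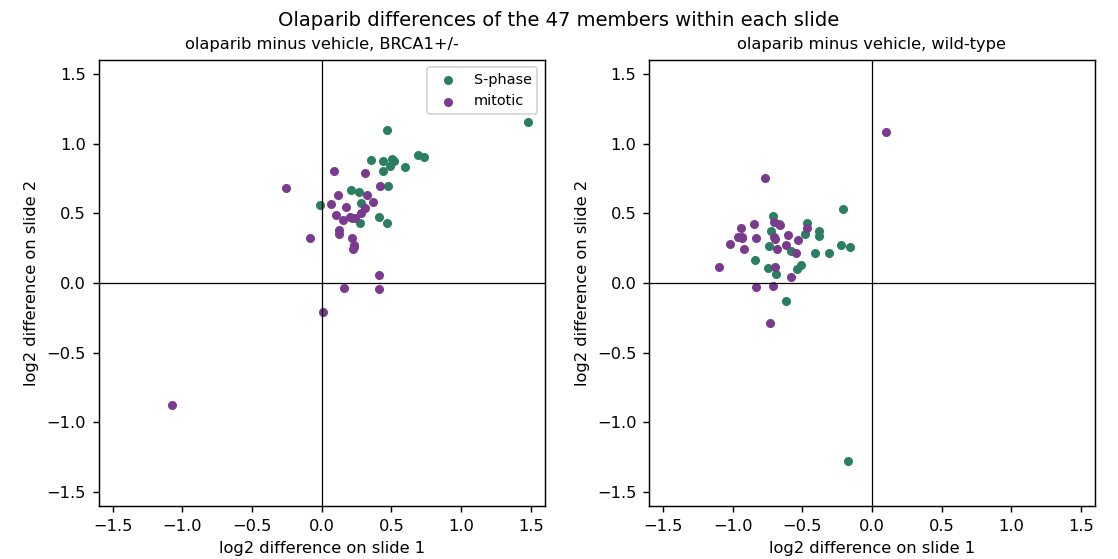
Log2 difference of olaparib minus vehicle on slide 1 (horizontal) and slide 2 (vertical) for the 47 members, in BRCA1+/- rats (left) and wild-type rats (right), 2 arrays of each group per slide. In BRCA1+/- rats most points are above 0 on both slides (medians 0.44 and 0.81 for S-phase, 0.19 and 0.47 for mitotic), whereas in wild-type rats most are below 0 on slide 1 and above 0 on slide 2.

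Mki67 shows the turn. It had 2.57, 2.99, 3.32 and 2.63 in wild-type olaparib ovaries, against 3.49, 3.39, 2.44 and 2.68 in wild-type vehicle ovaries. The slide 1 vehicle ovaries, replicates 1 and 2, were the highest of the 8, and olaparib replicate 3 of slide 2 was next. Cdk1 had 3.92, 4.21, 4.40 and 3.69 with olaparib, against 4.63, 4.71, 3.46 and 3.95 with vehicle. Top2a had 0.56, 0.88, 1.73 and 0.81 with olaparib, against 1.63, 1.86, 0.50 and 1.48 with vehicle. Ccnb1 had 1.17, 1.62, 1.75 and 0.99 with olaparib, against 2.23, 2.39, 0.77 and 1.48 with vehicle. In each the lowest vehicle ovary was replicate 3, below every olaparib ovary. Vehicle replicates 1 and 2 were above all olaparib ovaries in Cdk1 and Ccnb1, and in Top2a olaparib replicate 3 lay between them.

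The smallest p among mitotic members belonged to Cdc20, Tpx2 and Foxm1. Cdc20 had 1.80, 2.05, 2.77 and 2.00 in wild-type olaparib ovaries, against 2.77, 3.27, 1.87 and 2.67 in wild-type vehicle ovaries. Tpx2 had -0.56, -0.70, -0.35 and -1.12 with olaparib, against 0.14, 0.27, -1.21 and -0.22 with vehicle. Foxm1 had 0.65, 0.78, 1.28 and 0.79 with olaparib, against 1.19, 1.41, 0.95 and 1.03 with vehicle. In Foxm1 3 olaparib ovaries were below every vehicle ovary and replicate 3 was not, and vehicle replicate 3 lay among the olaparib values in Cdc20 and below all of them in Tpx2. The differences were -0.49 ± 0.34, -0.43 ± 0.35 and -0.27 ± 0.23 (SE; limma adjusted p = 0.965, 0.972 and 0.972). On slide 2 they were 0.12, -0.02 and 0.05. With slide as a block no member had an unadjusted p under 0.05, against 2.83% of features higher and 2.82% lower.

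Ttk had 0.49, 0.80, 1.29 and 0.77 in wild-type olaparib ovaries, against 1.48, 1.68, 0.39 and 1.02 in wild-type vehicle ovaries. Kif11 had 0.45, 0.82, 1.22 and 0.29 with olaparib, against 1.21, 1.46, 0.14 and 0.50 with vehicle. Mad2l1 had -0.72, -0.25, -0.22 and -0.79 with olaparib, against 0.03, 0.24, -0.95 and -0.61 with vehicle. All 3 had their lowest vehicle value in replicate 3. Aurka had 1.22, 2.01, 1.75 and 3.34 with olaparib, against 2.47, 2.30, 1.95 and 1.64 with vehicle, with a difference of -0.01 ± 0.41 (SE) that was -0.77 on slide 1 and 0.75 on slide 2. The highest mitotic difference was that of Aurkb (0.59 ± 0.58, SE).

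Among the S-phase members, Tyms had -1.40, -0.75, -0.73 and -1.08 in wild-type olaparib ovaries, against -0.46, -0.45, -0.97 and -0.59 in wild-type vehicle ovaries. Pcna had 2.51, 2.76, 3.18 and 2.53 with olaparib, against 3.31, 3.45, 2.61 and 2.89 with vehicle. Cdc45 had 2.34, 2.87, 2.87 and 2.49 with olaparib, against 3.46, 3.42, 2.63 and 2.40 with vehicle. These 3 had the smallest p of the class, with overlap in each. The differences were -0.37 ± 0.23, -0.32 ± 0.24 and -0.34 ± 0.30 (SE; limma adjusted p = 0.965, 0.965 and 0.974), and Tyms was lower on both slides (-0.62 and -0.12).

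Mcm3 had 2.77, 3.17, 3.31 and 2.48 in wild-type olaparib ovaries, against 3.39, 3.38, 2.52 and 2.83 in wild-type vehicle ovaries. Mcm2 had 4.01, 4.25, 4.67 and 4.24 with olaparib, against 4.46, 4.56, 4.13 and 4.03 with vehicle. Rrm1 had 3.54, 3.84, 3.83 and 3.50 with olaparib, against 4.10, 3.89, 3.45 and 3.45 with vehicle. In these helicase and nucleotide genes the pooled means lay within 0.10 of each other on the log2 scale (-0.10 ± 0.28, 0.00 ± 0.21 and -0.05 ± 0.19, SE). Rrm2 had 3.36, 4.10, 4.00 and 3.44 with olaparib, against 4.46, 4.42, 3.13 and 3.35 with vehicle. Tk1 had 3.49, 4.56, 1.94 and 2.12 with olaparib, against 4.69, 3.71, 1.76 and 4.86 with vehicle. Both enzyme genes had their lowest vehicle value in replicate 3. Ccne1 had 0.78, 1.45, 0.85 and 0.63 with olaparib, against 1.38, 1.30, 0.47 and 0.46 with vehicle. Ccnd2 had 3.24, 3.15, 3.87 and 3.69 with olaparib, against 3.50, 3.31, 3.29 and 3.21 with vehicle. Ccnd2, Mcm6 and Ccne1 were the 3 S-phase members with a higher mean under olaparib (0.16 ± 0.18, 0.05 ± 0.39 and 0.03 ± 0.26, SE), and in Ccnd2 both slide 2 olaparib ovaries exceeded every vehicle ovary.

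Single arrays moved these values. The S-phase median was 0.054 without wild-type vehicle replicate 1, 0.021 without replicate 2, -0.35 without replicate 3 and -0.28 without replicate 4. It was -0.039, -0.24, -0.22 and 0.012 when wild-type olaparib replicates 1, 2, 3 and 4 were left out in turn. The mitotic median was -0.082 without wild-type vehicle replicate 2, -0.16 without replicate 1 and -0.44 without replicate 3, and it was -0.15 without wild-type olaparib replicate 1 and -0.43 without replicate 3. Without wild-type vehicle replicate 3, Tpx2 and Cdc20 were lower at an unadjusted p under 0.05 (3.4% of all features), and without wild-type olaparib replicate 3 Cenpe was (2.37%). The count of S-phase members that were lower was 9 of 21 without wild-type vehicle replicate 1 or without replicate 2, and 10 without wild-type olaparib replicate 4.

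Markers of other cells differed in mean in this comparison, none past the limma test. All 13 oviduct markers were higher under olaparib (median 2.57), with scores of -1.75 to 3.57, against -2.40 to -1.12 with vehicle, and 8 of 9 adipocyte markers were higher (median 3.03, scores -1.95 to 3.50 with olaparib, against -2.35 to 0.09 with vehicle). Macrophage markers were lower for 10 of 12 (median -0.62, with -0.07 on slide 1 and -1.11 on slide 2, scores -1.24 to 0.38 with olaparib, against -0.39 to 0.59 with vehicle). Endothelial markers were lower for 10 of 11 (median -0.31, scores -1.11 to 0.78 with olaparib, against -0.14 to 0.45 with vehicle). Oocyte markers were lower for 9 of 11 (median -0.09, with -0.59 on slide 1 and 0.33 on slide 2). Without the oviduct-high arrays 19 of 21 S-phase members (median -0.20) and 25 of 26 mitotic members (median -0.37) were lower, over 2 olaparib arrays, 1 on each slide, and 4 vehicle arrays. The part of these markers was not otherwise tested.

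The other lists had no member past the limma test either (adjusted p of at least 0.965). Of 43 other G1 and S-phase genes 29 were lower and 14 higher (median -0.14, with -0.46 on slide 1 and 0.20 on slide 2). Among those with the smallest p were the cyclin D1 gene Ccnd1 (0.81 ± 0.47) and the kinase gene Cdk6 (0.43 ± 0.26, SE). Of 48 other mitotic genes 42 were lower (median -0.20, with -0.68 on slide 1 and 0.29 on slide 2). The phosphatase gene Cdc25c (-0.43 ± 0.21), the kinase gene Wee1 (0.49 ± 0.27) and the centromeric histone gene Cenpa (-0.49 ± 0.29, SE) led them. Of 18 inhibitors of the cycle 13 were lower (median -0.16, with -0.38 on slide 1 and 0.0006 on slide 2). Cdkn2a, which encodes the inhibitor p16 and the protein ARF, had -4.06, -2.36, -5.22 and -2.89 in wild-type olaparib ovaries, against -2.15, -1.32, -1.47 and -1.69 in wild-type vehicle ovaries. The groups did not overlap, and both oviduct-high arrays, replicates 1 and 3, were the lowest. Groups were apart in this way for 1 of the 18 inhibitors (background 0.564% higher and 0.593% lower). Cdkn2a is named for having the smallest p of its list. Its difference was -1.97 ± 0.53 (SE; limma adjusted p = 0.965), beside -2.01 ± 1.21 for Cdkn2b and -0.58 ± 0.33 for Cdkn1b.

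With vehicle, BRCA1+/- ovaries had lower means than wild-type ovaries for all 21 S-phase members and for 24 of 26 mitotic members. The medians were -0.57 and -0.49, against -0.06 over all features, of which 42.2% were higher. At an unadjusted p under 0.05, 6 S-phase members (Tyms, Tk1, Mcm3, Pcna, Gins1 and E2f1) and 1 mitotic member (Foxm1) were lower (background 3.56%), and Aurka was higher (background 1.93%). Tyms was apart on all arrays on the lower side (background 2.19%) and Aurka on the higher side (background 1.25%). The BRCA1+/- vehicle arrays are also those against which olaparib was compared in BRCA1+/- rats, so these are not independent sets of values.

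Tyms (probe at chr9:112605733-112605792 on the minus strand in the files' rn4 annotation) averaged -1.20 ± 0.19 in BRCA1+/- vehicle ovaries and -0.62 ± 0.24 in wild-type vehicle ovaries (SD, n = 4 each). The highest BRCA1+/- ovary, -1.04, was below the lowest wild-type ovary, -0.97. The difference was -0.58 ± 0.23 (SE; 0.67-fold; 95% interval -1.07 to -0.10; limma adjusted p = 0.862), and the two-sided exact permutation p was 0.0286, the smallest that 4 against 4 arrays can give. Of 47 members in 4 comparisons, this p was reached by 2, Tyms and Aurka, both in this comparison. It needs groups that are apart on all arrays. Over all features that held here for 2.19% on the lower and 1.25% on the higher side. In the other comparisons it held for 0.257% to 0.608% on a side. Such separation is thus no mark of the members.

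Aurka averaged 3.28 ± 0.65 in BRCA1+/- vehicle ovaries and 2.09 ± 0.37 in wild-type vehicle ovaries (SD, n = 4 each). Its lowest BRCA1+/- value, 2.55, was above the highest wild-type value, 2.47. The difference was 1.19 ± 0.41 (SE; 2.29-fold; 95% interval 0.33 to 2.06; limma adjusted p = 0.862; two-sided exact permutation p = 0.0286), with 1.18 on slide 1 and 1.20 on slide 2. Aurkb (0.39 ± 0.58, SE) was the other mitotic member with a higher mean, with -0.67 on slide 1 and 1.45 on slide 2.

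Tk1 averaged 1.97 ± 0.44 in BRCA1+/- vehicle ovaries and 3.76 ± 1.42 in wild-type vehicle ovaries (SD, n = 4 each). Wild-type replicate 3, at 1.76, lay within the BRCA1+/- values and the other 3 wild-type ovaries above them, and the difference was -1.79 ± 0.73 (SE; limma adjusted p = 0.862). Mcm3 averaged 2.38 ± 0.19 in BRCA1+/- vehicle ovaries, against 3.03 ± 0.43 in wild-type vehicle ovaries. Pcna averaged 2.50 ± 0.30 in BRCA1+/- vehicle ovaries, against 3.07 ± 0.39 in wild-type vehicle ovaries. In both genes 3 of 4 BRCA1+/- ovaries were below every wild-type ovary (differences -0.65 ± 0.28 and -0.56 ± 0.24, SE). Foxm1 averaged 0.63 ± 0.38 in BRCA1+/- vehicle ovaries and 1.15 ± 0.20 in wild-type vehicle ovaries (difference -0.52 ± 0.23, SE), with BRCA1+/- replicate 1 alone within the wild-type range. The remaining S-phase members lay between -0.84 (Mcm10) and -0.15 (Cdc45), and the remaining mitotic members between -0.63 and -0.30.

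On slide 1 the medians of BRCA1+/- minus wild-type with vehicle were -0.75 for S-phase and -0.51 for mitotic members, and on slide 2 they were -0.41 and -0.49. With slide as a block 11 S-phase members and 3 mitotic members (Foxm1, Tpx2 and Mki67) were lower at an unadjusted p under 0.05 (4.99% of all features) and Aurka was higher (2.12%), with a smallest adjusted p of 0.695 in limma. Without the oviduct-high arrays, which leaves BRCA1+/- vehicle replicates 1 and 2 of slide 1 against all 4 wild-type vehicle arrays, 21 of 21 S-phase members (median -0.34) and 20 of 26 mitotic members (median -0.17) were lower. At an unadjusted p under 0.05 there was then 1 member, Aurka, which was higher (1.48), against 1.86% of all features higher and 1.82% lower. The counts of 6 and 1 lower members at that p depended on single arrays. They were 0 and 0 without BRCA1+/- vehicle replicate 3 (2.33% of all features lower) or wild-type vehicle replicate 1 (3.51%). They were 1 and 0 without BRCA1+/- vehicle replicate 2 or 4 (3.31% and 2.54%) or wild-type vehicle replicate 2 (2.26%). They were 10 and 11 without BRCA1+/- vehicle replicate 1 (4.12% of all features), and 13 and 11 without wild-type vehicle replicate 3 (5.9%). Aurka was higher at that p in each of these fits. Leaving out single arrays gave S-phase medians between -0.82 without wild-type vehicle replicate 3 and -0.43 without wild-type vehicle replicate 2. The mitotic median was -0.32 without BRCA1+/- vehicle replicate 3, -0.74 without BRCA1+/- vehicle replicate 1 and -0.73 without wild-type vehicle replicate 3.

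Of the other lists, 41 of 43 G1 and S-phase genes (median -0.36) and 45 of 48 mitotic genes (median -0.47) were lower in BRCA1+/- than in wild-type ovaries with vehicle, and 10 of 18 cycle inhibitors (median -0.11). Markers of other cells differed in mean in this comparison too, none past the limma test. Oviduct markers were higher for 13 of 13 (median 2.28, with -0.27 on slide 1 and 4.59 on slide 2), with scores of -2.42 to 3.77 in BRCA1+/- and -2.40 to -1.12 in wild-type. Granulosa markers were lower for 10 of 13 (median -0.40, scores -0.47 to 0.00 in BRCA1+/- and -0.18 to 0.47 in wild-type). Oocyte markers were higher for 10 of 11 (median 0.42, scores -0.45 to 0.65 in BRCA1+/- and -0.33 to 0.39 in wild-type) and T and NK cell markers for 9 of 10 (median 0.40, scores 0.10 to 0.69 in BRCA1+/- and -0.59 to 0.19 in wild-type). Red cell genes were higher for 11 of 11 (median 0.37, with 0.77 on slide 1 and -0.01 on slide 2), with scores of 0.05 to 0.78 in BRCA1+/- and -0.14 to 0.53 in wild-type. Their part in the member differences was not tested.

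**Figure D5:**
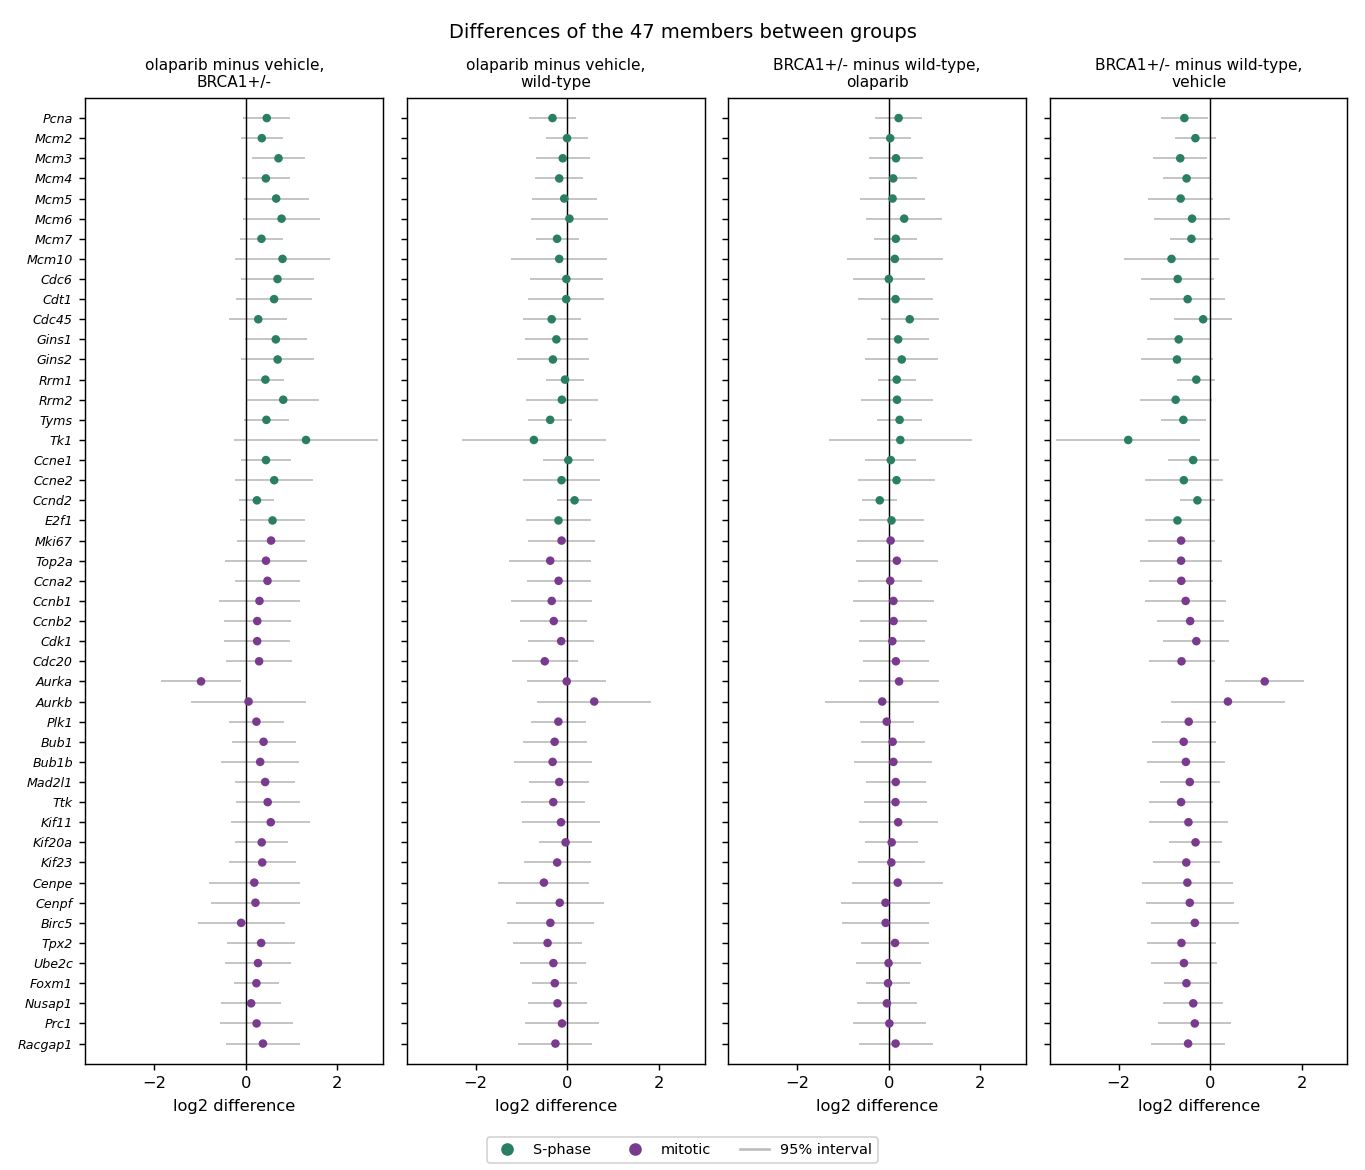
Log2 difference of each of the 47 members (rows, S-phase members green and mitotic members purple) in 4 comparisons, with 95% intervals from limma as grey lines. All S-phase points lie right of 0 for olaparib in BRCA1+/- rats and left of 0 for genotype with vehicle, comparisons that share the BRCA1+/- vehicle arrays, and Aurka lies opposite to its class in both (-0.97 and 1.19).

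Under olaparib most members had slightly higher means in BRCA1+/- than in wild-type ovaries, with intervals that include 0. Of the S-phase members 20 of 21 had higher means in BRCA1+/- ovaries (median 0.16) and of the mitotic members 19 of 26 (median 0.08), against 0.02 and 53.2% over all features. None had an unadjusted p under 0.05 (background 0.554% higher and 0.361% lower) or groups apart on all arrays (0.326% and 0.257%). Cdc45 had the smallest p, with 3.10 ± 0.38 in BRCA1+/- and 2.64 ± 0.27 in wild-type ovaries (SD, n = 4 each) and a difference of 0.46 ± 0.30 (SE; limma adjusted p = 1.00). Ccnd2 was the 1 S-phase member with a lower mean (3.30 ± 0.17 in BRCA1+/-, against 3.49 ± 0.35 in wild-type; difference -0.19 ± 0.18, SE). Mcm3 was at 0.16 ± 0.28 (95% interval -0.43 to 0.75) and Mki67 at 0.04 ± 0.34 (-0.69 to 0.78). Tyms (0.24 ± 0.23), Aurka (0.23 ± 0.41), Kif11 (0.21 ± 0.40) and Mad2l1 (0.15 ± 0.31, SE) had the next smallest p of their classes.

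The mitotic direction in that comparison differed between slides, with a median of 0.40 and 25 of 26 members higher on slide 1 and a median of -0.25 and 2 of 26 higher on slide 2. The S-phase medians were 0.17 and 0.12. Without the oviduct-high arrays the medians were 0.31 for S-phase and 0.40 for mitotic members. That leaves BRCA1+/- olaparib replicates 1 and 2, both of slide 1, against wild-type olaparib replicate 2 of slide 1 and replicate 4 of slide 2. Genotype and slide cannot be fully told apart in this setting. With slide as a block no member had an unadjusted p under 0.05, against 0.667% of features higher and 0.544% lower. The count of higher S-phase members was 12 of 21 without BRCA1+/- olaparib replicate 1 and 13 without wild-type olaparib replicate 4. The S-phase median was 0.026 and 0.022 in these settings, 0.045 without BRCA1+/- olaparib replicate 4, 0.32 without BRCA1+/- olaparib replicate 3 and 0.25 without wild-type olaparib replicate 3. The mitotic median was -0.015 without BRCA1+/- olaparib replicate 4, with 13 of 26 members higher, and 0.32 without replicate 3, with 25 of 26 higher. It was 0.020 without BRCA1+/- olaparib replicate 1 and 0.014 without replicate 2. Without wild-type olaparib replicates 1, 3 and 4 in turn it was 0.012, 0.22 and 0.00094, with 14, 26 and 13 of 26 members higher.

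No marker of other cells passed the limma test in that comparison either. The oviduct markers were lower in BRCA1+/- for 13 of 13 (median -0.85) and had a median of 1.06 on slide 2, and adipocyte markers were lower for 8 of 9 (median -1.17, with -3.12 on slide 1 and 1.33 on slide 2). Macrophage markers were higher for 12 of 12 (median 0.44, with -0.40 on slide 1 and 1.16 on slide 2), with scores of -0.52 to 0.48 in BRCA1+/- and -1.24 to 0.38 in wild-type ovaries. Endothelial markers were higher for 11 of 11 (median 0.24, with 0.40 on slide 1 and -0.07 on slide 2), with scores of -0.25 to 0.53 in BRCA1+/- and -1.11 to 0.78 in wild-type ovaries. Oocyte markers were higher for 10 of 11 (median 0.31, with 0.77 on slide 1 and -0.14 on slide 2), with scores of -0.16 to 0.45 in BRCA1+/- and -0.82 to 0.94 in wild-type ovaries. Granulosa markers were higher for 7 of 13 (median 0.04), with scores of -0.26 to 0.46 in BRCA1+/- and -0.39 to 0.58 in wild-type ovaries. Like the mitotic members they turned between slides. Their median was 0.63 on slide 1, with 13 of 13 higher, and -0.56 on slide 2, with 3 of 13 higher. The part of these markers in the member values was not otherwise tested.

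The difference between the genotypes in their response to olaparib was tested as an interaction, computed as the response in BRCA1+/- rats minus the response in wild-type rats. It was above 0 for all 21 S-phase members (median 0.73) and for 24 of 26 mitotic members (median 0.59), against 0.08 and 57.9% over all features. Tyms (0.82 ± 0.32) and Pcna (0.78 ± 0.34, SE) had an unadjusted p under 0.05 (background 2.03% higher and 1.4% lower), followed by Mcm3 (0.81 ± 0.39), and among mitotic members by Ttk (0.78 ± 0.46), Aurka (-0.97 ± 0.57) and Cdc20 (0.78 ± 0.48). No member passed the limma test (adjusted p of 0.968 or more). Aurka and Aurkb (-0.53 ± 0.82, SE) were the 2 mitotic members below 0. The medians were 0.98 for both classes on slide 1, and 0.49 for S-phase and 0.24 for mitotic members on slide 2. With slide as a block 5 S-phase members (Tyms, Gins2, Pcna, Mcm3 and Tk1) were above 0 at an unadjusted p under 0.05, against 3.04% of features, and no member was below 0 at that p, against 1.64%. Without the oviduct-high arrays the medians were 0.63 and 0.59, and 1 member, Aurka, had an unadjusted p under 0.05 (-1.66), against 0.672% of all features above 0 and 0.781% below. That leaves only slide 1 arrays in both BRCA1+/- groups, while both wild-type groups keep arrays of slide 1 and slide 2. Leaving out single arrays moved the count of S-phase members above 0 at an unadjusted p under 0.05 between 0 and 11. It was 0 without BRCA1+/- olaparib replicate 1 or 4 (1.33% and 1.15% of all features) or wild-type olaparib replicate 1 (1.3%). It was 11 without wild-type vehicle replicate 3, when 4.29% of all features were above 0 at that p. It was 1 without BRCA1+/- vehicle replicate 2, 3 or 4 (2.64%, 1.24% and 1.74%), wild-type olaparib replicate 4 (2.81%) or wild-type vehicle replicate 1 or 2 (2.23% and 1.22%). It was 3 without wild-type olaparib replicate 2 (3.34%) or wild-type vehicle replicate 4 (1.66%), and 4 without BRCA1+/- olaparib replicate 2 (2.17%) or BRCA1+/- vehicle replicate 1 (2.1%). It was 5 without wild-type olaparib replicate 3 (2.04%) and 9 without BRCA1+/- olaparib replicate 3 (2.91%). Mitotic members above 0 at that p were Ttk, Foxm1 and Cdc20 without BRCA1+/- olaparib replicate 3 (2.91% of all features) or BRCA1+/- vehicle replicate 1 (2.1%). Without wild-type vehicle replicate 3 they were Tpx2, Ttk and Cdc20 (4.29%). Aurka was below 0 at that p without wild-type olaparib replicate 1 (0.954% of all features below 0).

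Markers of other cells had interaction values away from 0 as well. They were below 0 for all 13 oviduct markers (median -2.53), 8 of 9 adipocyte markers (median -2.84) and 10 of 11 red cell genes (median -0.47, with -1.70 on slide 1 and 0.47 on slide 2). They were above 0 for 10 of 12 macrophage markers (median 0.46, with -0.43 on slide 1 and 1.42 on slide 2) and 10 of 13 granulosa markers (median 0.37). No marker passed the limma test, and their part in the member values was not tested.

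Several members were read by more than 1 probe, which gives a second view of the same RNA. For 17 members 22 further probes passed the filter. None had the opposite sign to the probe used for olaparib in BRCA1+/- rats. The number was 3 for olaparib in wild-type rats, 5 for genotype under olaparib and 1 for genotype with vehicle. The second Tk1 probe gave 1.11 for olaparib in BRCA1+/- rats and -1.23 for genotype with vehicle, with r = 0.979 to the first over 16 arrays, and the second Rrm2 probe gave 0.69 and -0.87 (r = 0.895). The second Mcm3 probe gave 0.14 and -0.14 (r = 0.461). The lowest r to the probe used were -0.083 for a further Mki67 probe and 0.166 for the second Gins2 probe. A shared sign is a weak check for such probes. Tyms and Aurka had 1 probe each, so their values have no such check.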

How the data were processed

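Total RNA of 16 ovaries was labelled with Cy3 and hybridised to a 1-colour Agilent rat array, 1 array per sample. Spots were quantified by the authors with Agilent Feature Extraction, 10.7 per the submitters' processing notes and 10.7.1.1 per the file headers. The deposited processed signal is an intensity, background-subtracted and detrended within the array per the file headers. A value table deposited by the authors gives log2 numbers. Over probes with 1 spot it differs on each array from the log2 of this signal by 1 constant (r = 1.0), and other probes were not compared. Its column medians were -4.22 to -3.60, and it served as an alternative. Mean and local background intensity, also deposited by the authors, were used for the normexp alternative.

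The log2 signal here is log2 of the processed signal minus the array's 75th percentile over non-control probes. Of 45598 such probes 12 lacked a usable spot on an array, and 26820 were well above background in at least 3 of 4 arrays of a group. The probe with the highest mean stood for a gene, giving 20227 features. Names came from RefSeq by accession (21229 probes), symbol (9328) or older symbol (321), or from the file (5270), and 9450 had none. Limma 3.58.1 in R 4.3.3 was fitted with a mean for each of 4 groups over 16 arrays (12 residual and 2.43 prior degrees of freedom), with Benjamini-Hochberg adjustment over all features. It was tested on simulated data. Exact permutation tests over 70 arrangements, two-sided, were run for single members. A fold is 2 to the power of a log2 difference. The members and all lists were chosen with earlier results of these data known. Values in every array are given for Pcna, Mcm2, Ccnd2, Ccne1, Mki67, Top2a, Ccnb1, Cdk1 and for the 3 S-phase and 3 mitotic members with the smallest unadjusted p in each comparison, and from each of the 3 further lists the 3 genes with the smallest p in each olaparib comparison are named, except 1 that is not reported here. Alternatives were the value table, normexp (offset 50), quantile normalisation, no filter, the mean of a gene's probes, slide or replicate number as a block, each array left out, each slide alone, and the 6 arrays with an oviduct score above 0 left out.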

Additional observations from a re-analysis of the deposited data

Results flagged for a closer look

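In 92 groups of 4 arrays (the named members and both scores), the gap between the most distant array and its nearest neighbour was compared with the range of the group, and 5 exceeded Dixon's 95% critical value for 4 samples. Chance gives about 1 in 20 groups, which is near the share found. BRCA1+/- olaparib replicate 3 accounted for 4 of the 5. Its Cdk1 log2 signal was 3.33, with the other 3 ovaries of the group between 4.34 and 4.54. Its Mki67 was 2.10, with the others between 3.14 and 3.26, and its Tpx2 was -1.26, with the others between -0.34 and -0.26. Its mitotic score was -0.62, with the others between 0.20 and 0.36. These 4 flags are not separate, since the 3 genes are part of the mitotic score. After subtracting group means, Cdk1, Mki67 and Tpx2 tracked the other mitotic members with r = 0.948, 0.942 and 0.895. The array is on slide 2 and has an oviduct score of 2.79, and their part in these values was not tested. The fifth was Tk1 in BRCA1+/- vehicle replicate 1, at 2.62, with the others between 1.69 and 1.80. Without BRCA1+/- olaparib replicate 3 the median log2 difference of olaparib in BRCA1+/- rats was 0.55 for mitotic members, against 0.30 with it.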

How the results depend on the processing

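No feature was called in any comparison with limma under the value table, normexp, quantile normalisation, no filter, the mean of probes, either block or without the oviduct-high arrays. Leaving out single arrays gave 0 to 1 called features for olaparib in BRCA1+/- rats, the 1 being Tbx20 without wild-type olaparib replicate 4 (log2 difference -3.40, adjusted p = 0.0482), a gene named after its values were seen, and 0 elsewhere. Single arrays also moved the S-phase members lower with olaparib in wild-type rats between 9 and 20 of 21, and those higher in BRCA1+/- under olaparib between 12 and 20 of 21. Within slide 2, 2 of 21 S-phase and 3 of 26 mitotic members were lower with olaparib in wild-type rats, and 2 of 26 mitotic members were higher in BRCA1+/- under olaparib; the mitotic median of olaparib in wild-type rats was -0.71 on slide 1 and 0.32 on slide 2. Single genes that turned sign for olaparib in wild-type rats were Cdc20 (0.12), Cdc45 (0.17), Foxm1 (0.045) and Pcna (0.11) on slide 2, and Cdkn2b (0.54) without the oviduct-high arrays. For genotype under olaparib they were Aurka (-0.42 on slide 2, -0.18 without the oviduct-high arrays, -0.058 to 0.65 with single arrays left out, lowest without wild-type olaparib replicate 1), Kif11 (-0.18 on slide 2) and Ccnd2 (0.031 on slide 1), and for genotype with vehicle Cdk1 (0.021 without the oviduct-high arrays). The cause was not tested. Of 24 pairs of arrays with the same replicate number in different groups, 13 correlated above 0.1 (median r 0.207, range -0.44 to 0.71). The median r was 0.034 for other pairs on the same slide and -0.125 for pairs on different slides. The labels do not name the rats, and the numbers were not taken as a pairing in the main fit. With the replicate number as a block the S-phase median of olaparib in BRCA1+/- rats was 0.62 and no feature was called, with 488, 1607, 394, 1807 and 1403 features at an unadjusted p under 0.05, against 237, 876, 185, 1112 and 695 without it. In that fit 6 S-phase members were higher with olaparib in BRCA1+/- rats at that p (273 of 20227 features), and 1 mitotic member was lower (215). For genotype with vehicle 8 S-phase and 2 mitotic members were lower (1180 features), and 1 mitotic member was higher (627). For the interaction 4 S-phase members were above 0 (851 features). Probes near background have compressed differences, and array number limits what a difference of this size can show.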
